A study of Mus musculus with 21 samples.

Results

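The simple epithelial keratins Krt7, Krt8, Krt18 and Krt19 were followed in the embryonic mouse pancreas, as 4 genes of the 19296 that could be tested. Each was taken from the deposited value table as the row whose platform annotation gives that symbol and no other, and each had 1 such row: probe set 10427052 for Krt7, 10432918 for Krt8, 10427075 for Krt18 and 10391036 for Krt19. Pancreata had been sorted by flow cytometry on FVF, a fusion of the fluorescent protein Venus to Foxa2, a transcription factor of endoderm-derived epithelium, into cells with (FVF+) and without (FVF-) the fusion. All animals had a mixed C57-Bl6/SV129/CD1 strain background, and total RNA was hybridised to Affymetrix arrays. There were 2 FVF- and 3 FVF+ arrays at embryonic day E12.5, 2 and 2 at E13.5, 3 and 3 at E14.5, and 3 and 3 at E15.5, or 21 in all. They are described as biological replicates, with no word on which embryos or litters each came from or how many were pooled, so p-values measure only the spread between these samples.

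Keratins are the intermediate filament proteins of epithelial cells. A filament is built from pairs of a type II and a type I keratin: Krt7 and Krt8 are type II, and Krt18 and Krt19 are type I. Krt8 and Krt18 are the pair of most simple, single-layered epithelia, while Krt7 and Krt19 are added in ducts and other lining epithelia, and in the adult pancreas Krt7 and Krt19 are widely used as stains for ducts. Simple keratins, Krt19 among them, are also known from mesothelium, the flat lining of the body cavities and organ surfaces.

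In the mouse genome Krt7, Krt8 and Krt18 lie on chromosome 15, although Krt18 is a type I keratin, and Krt19 lies on chromosome 11. RefSeq (GRCm38.p6) lists 2 predicted genes, Gm36026 and Gm41404, between Krt8 and Krt18. Promoter sequences are shown for Krt7, Krt8 and Krt18, the 3 members matched in the RefSeq promoter table. All 3 were higher in FVF+ cells on every day. Each window runs 5′ to 3′ on the gene's strand from 250 bases before the annotated start through the first 30 bases of the transcript: chr15:101412153-101412432 (+) for Krt7, chr15:102004313-102004592 (-) for Krt8 and chr15:102027966-102028245 (+) for Krt18. Capitals mark matches on either strand to the searched letters.
Krt7: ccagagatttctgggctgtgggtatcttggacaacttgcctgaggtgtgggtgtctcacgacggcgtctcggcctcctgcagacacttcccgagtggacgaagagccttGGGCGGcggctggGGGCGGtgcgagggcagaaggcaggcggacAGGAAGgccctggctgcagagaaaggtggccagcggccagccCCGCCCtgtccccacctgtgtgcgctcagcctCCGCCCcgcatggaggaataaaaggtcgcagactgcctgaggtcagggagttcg
Krt8: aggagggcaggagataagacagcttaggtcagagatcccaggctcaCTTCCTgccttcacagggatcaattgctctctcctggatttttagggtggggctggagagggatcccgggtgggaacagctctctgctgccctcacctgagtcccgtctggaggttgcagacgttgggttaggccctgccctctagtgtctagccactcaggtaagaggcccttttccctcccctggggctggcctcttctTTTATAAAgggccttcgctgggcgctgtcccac
Krt18: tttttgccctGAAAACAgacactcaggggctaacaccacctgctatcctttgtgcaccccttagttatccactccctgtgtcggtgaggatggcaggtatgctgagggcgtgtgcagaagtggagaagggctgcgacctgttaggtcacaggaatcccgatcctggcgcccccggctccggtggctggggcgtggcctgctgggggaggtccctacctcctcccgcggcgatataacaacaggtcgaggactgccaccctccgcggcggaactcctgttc
The 3 windows hold different letters. Krt7 has 4 GC boxes (GGGCGG, read as CCGCCC where the match is on the other strand) and 1 Ets motif (AGGAAG). Krt8 has the letters of a TATA box (TATAAA) on the gene strand from base -1 to 5, across the annotated start, overlapped by a match on the other strand. It also has an Ets motif on the other strand. Krt18 has 1 forkhead motif (TGTTTNC), on the other strand from base -240 to -234. Among windows of the same length at 32841 annotated starts, 34.7% hold a GC box, 32.9% an Ets motif, 13.1% a TATA box and 19.4% the forkhead motif. The letters of an AP-1 motif (TGANTCA, in 7.46% of windows) and of a grainyhead motif (AACCNGTT, in 1.95%) were not in these 3 windows. A match is a run of letters and was not tested as a binding site.

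The deposited values are log2 signals summarised by robust multi-array average (RMA), and they ran from 4.0 to 15.31 with array medians between 8.68 and 8.82. Over all genes, Pearson r was 0.985 to 0.997 between arrays of 1 group and 0.889 to 0.941 across the sorts. Foxa2 itself was 2.91 ± 0.10 higher (log2 difference ± moderated SE) in FVF+ cells as the mean of the 4 days. Epithelium markers (Epcam, Cdh1, claudins and others) were higher in FVF+ for 10 of 10 genes, as were 9 of 9 acinar and 11 of 11 endocrine markers. Markers of mesenchyme (10 of 10), smooth muscle (6 of 6), endothelium (8 of 8) and macrophages and leukocytes (8 of 8) were all lower in FVF+. Of all 19296 genes 5886 were higher and 4858 lower in this comparison. Mesothelium markers were lower in 7 of 9, red blood cell markers in 5 of 6 and neural crest, glia and neuron markers in 3 of 5, while 1 of 6 red blood cell and 1 of 5 neural markers were higher. In bulk samples such as these, fewer cells of a type and less RNA per cell cannot be told apart.

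Krt8, the most widely shared type II keratin of simple epithelia, was 10.9-fold higher in FVF+ than in FVF- cells over the 4 days. On the FVF+ arrays its log2 signal was 13.80, 13.70 and 13.85 at E12.5, 13.84 and 13.88 at E13.5, 14.02, 14.20 and 14.03 at E14.5, and 14.06, 14.11 and 14.07 at E15.5. On the FVF- arrays Krt8 read 9.94 and 9.65 at E12.5, 10.05 and 10.26 at E13.5, 11.29, 10.27 and 11.08 at E14.5, and 11.17, 11.34 and 11.09 at E15.5. All 11 FVF+ arrays were above all 10 FVF- arrays, and the FVF+ arrays lay close together while the FVF- arrays spread over more than a log2 unit from the early to the late days. The difference was 3.99 ± 0.19 at E12.5, 3.71 ± 0.21 a day later, 3.20 ± 0.17 at E14.5 and 2.88 ± 0.17 at E15.5, with limma adjusted p-values of 9.3e-10 or less. As the mean of the 4 days it was 3.44 ± 0.09 (limma adjusted p = 2.8e-15), the largest of the members and in place 83 among the 19296 genes ranked from the most positive difference. RefSeq lists 1 Krt8 pseudogene, and whether the probe set also reads it was not tested.

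Krt18, the type I partner of Krt8, was 7.36-fold higher in FVF+ cells. Krt18 on the FVF+ arrays was 12.74, 12.59 and 12.67 at E12.5, 12.88 and 12.52 at E13.5, 12.93, 13.25 and 12.95 at E14.5, and 13.29, 13.23 and 13.23 at E15.5. On the FVF- arrays it was 9.73 and 9.64 at E12.5, 9.72 and 9.90 at E13.5, 10.46, 9.66 and 10.53 at E14.5, and 10.29, 10.39 and 10.62 at E15.5. Again every FVF+ array was above every FVF- array. The daily difference was 2.98 ± 0.19, 2.89 ± 0.21, 2.83 ± 0.17 and 2.82 ± 0.17 from E12.5 to E15.5, and its mean was 2.88 ± 0.09 (limma adjusted p = 1.3e-14). Among all genes Krt18 took place 148 by that mean.

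Krt7, the type II keratin of ducts and other lining epithelia, showed the same direction at a smaller size, 2.92-fold. On the FVF+ arrays Krt7 was 11.59, 11.71 and 11.51 at E12.5, 12.00 and 11.58 at E13.5, 11.98, 12.37 and 11.94 at E14.5, and 11.84, 11.70 and 11.64 at E15.5. On the FVF- arrays it was 9.96 and 10.01 at E12.5, 10.19 and 9.78 at E13.5, 10.72, 10.30 and 10.58 at E14.5, and 10.80, 10.32 and 10.48 at E15.5. The sorts did not overlap, with the lowest FVF+ array at E12.5 still above the highest FVF- array at E15.5. The differences were 1.62 ± 0.17, 1.80 ± 0.19, 1.56 ± 0.15 and 1.19 ± 0.15 from E12.5 to E15.5, and 1.55 ± 0.08 as their mean (limma adjusted p = 1.0e-11).

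These 3 keratins were therefore called higher in FVF+ on each of the 4 days, which held for 9.22% of all genes. By day, the share of all genes called higher from E12.5 to E15.5 was 17.2%, 15.8%, 23.1% and 24.4%, and 30.5% for the mean of the days. A gap between all FVF+ and all FVF- arrays, as seen for the same 3 members, was found in 7.81% of genes. The fourth member did not follow them.

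Krt19, the type I keratin used as a duct stain, did not separate the sorts. Its signal on the FVF+ arrays was 9.81, 9.61 and 9.80 at E12.5, 10.03 and 9.71 at E13.5, 10.16, 10.85 and 10.07 at E14.5, and 10.73, 10.87 and 10.72 at E15.5. On the FVF- arrays Krt19 was 8.99 and 8.92 at E12.5, 10.19 and 8.97 at E13.5, 10.96, 10.94 and 10.48 at E14.5, and 11.40, 10.97 and 11.37 at E15.5. At E12.5 all FVF+ arrays were above the FVF- arrays, as for 28.9% of all genes, at E13.5 and E14.5 the sorts overlapped, and at E15.5 all FVF- arrays were above the FVF+ arrays, as for 22.9% of all genes. Krt19 was higher in FVF+ at E12.5, by 0.79 ± 0.27 or 1.72-fold (limma adjusted p = 0.0306), in a comparison that called 17.2% of genes higher. That call was lost without either FVF- E12.5 array, without FVF+ E12.5 replicate 1 and without FVF+ E12.5 replicate 3, at 0.75 to 0.82 (limma adjusted p = 0.0680 to 0.147), and with quantile or cyclic loess normalization, at 0.70 under both.

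The later differences of Krt19 were 0.29 ± 0.30 at E13.5 (limma adjusted p = 0.507), -0.43 ± 0.24 at E14.5 (0.166) and -0.47 ± 0.24 at E15.5 (0.127), none of them called. At E13.5 the value rested on which FVF- array was used: without FVF- replicate 1, the array at 10.19, it was 0.90 (limma adjusted p = 0.0195), and without FVF- replicate 2 it was -0.32. Without FVF+ E14.5 replicate 2, the array at 10.85, the E14.5 difference was called at -0.68 (limma adjusted p = 0.0294). The E15.5 difference of -0.47 was called when either FVF- E13.5 array, which is not in that comparison but enters the shared spread, was left out (limma adjusted p = 0.0406). As the mean of the 4 days Krt19 differed by 0.04 ± 0.13, with a 95% interval from -0.24 to 0.32 (limma adjusted p = 0.815), while 55.7% of all genes were called in one direction or the other. In the main fit no member was called higher in FVF+ at E12.5 and lower at E15.5, a pattern held by 0.632% of genes. Krt19 was called lower at E15.5 in 5 of 32 alternatives, each of which kept its E12.5 call, so it held this pattern there.

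**Figure D1:**
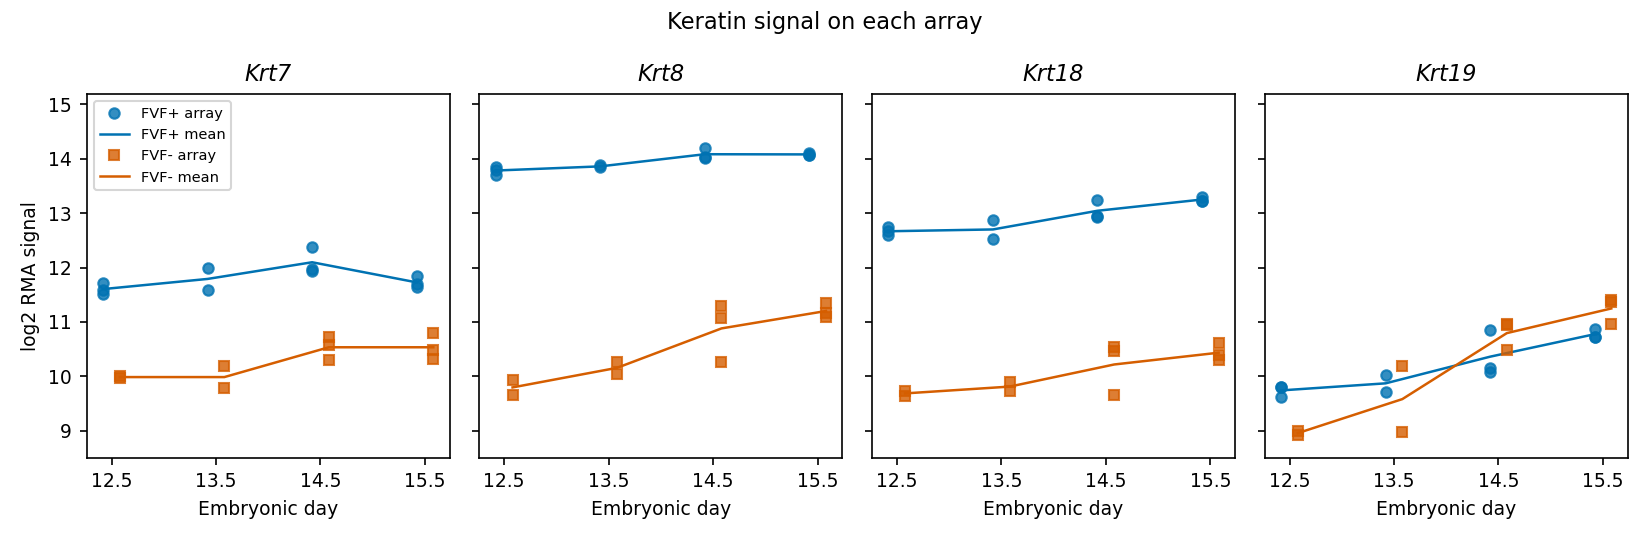
Log2 RMA signal (vertical axis) of Krt7, Krt8, Krt18 and Krt19 on each of the 21 arrays against embryonic day (horizontal axis). Circles are FVF+ arrays, squares are FVF- arrays, set slightly apart for legibility, and lines join the group means. Circles and squares do not overlap for Krt7, Krt8 and Krt18, and the lines of Krt19 cross, with FVF- means from 8.96 at E12.5 to 11.25 at E15.5 and FVF+ means from 9.74 to 10.77.

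Ranked by group mean, Krt7, Krt8 and Krt18 had the 4 FVF+ groups at the top and the 4 FVF- groups below. Within FVF+, neighbours in this order overlapped, except that Krt8 at E15.5 was clear of E13.5 by 0.18 and Krt18 at E14.5 was clear of E13.5 by 0.05. Within FVF-, Krt7 at E15.5 was clear of E12.5 by 0.31, and 24.5% of all genes had E15.5 arrays above E12.5 arrays. Krt8 in FVF- was clear at E14.5 of E13.5 by only 0.01 and at E13.5 of E12.5 by 0.11, while the neighbours of Krt18 overlapped. Krt19 ran in another order. Its highest group was FVF- E15.5, at 11.25 ± 0.24 (SD, n = 3), followed by FVF- E14.5 at 10.79 ± 0.27 (SD, n = 3) and FVF+ E15.5 at 10.77 ± 0.08 (SD, n = 3). The lowest was FVF- E12.5 at 8.96 ± 0.05 (SD, n = 2), next to FVF- E13.5 at 9.58 ± 0.86 (SD, n = 2), the widest spread of any group of the 4 keratins. Of the neighbours in the Krt19 order, the arrays of FVF- E15.5 and FVF- E14.5 did not overlap, with a gap of only 0.01. Those of FVF+ E14.5 and FVF+ E13.5 did not overlap either, with a gap of 0.04, and all other neighbours overlapped. For gaps within a sort other than that of Krt7, the share of all genes was not counted.

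The members' differences between the sorts were compared directly, as differences within each array, so that no probe set's level was set against another's. There were 6 pairs, tested by a two-sided exact permutation of the sort labels within days (24000 arrangements) and adjusted over the 6. The sort difference of Krt8 exceeded that of Krt19 by 3.40, that of Krt18 exceeded Krt19 by 2.84, and that of Krt7 exceeded Krt19 by 1.50, each with an exact p = 4.2e-05, the smallest that the permutations can give, and an adjusted p = 5.0e-05. Krt7 minus Krt8 was -1.90 and Krt7 minus Krt18 was -1.33, with the same exact p-values. These 5 differences kept their sign on each of the 4 days. The partners Krt8 and Krt18 differed by less, 0.57 (exact p = 5.4e-04, adjusted p = 5.4e-04), and their gap from E12.5 to E15.5 was 1.01, 0.82, 0.38 and 0.06.

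**Figure D2:**
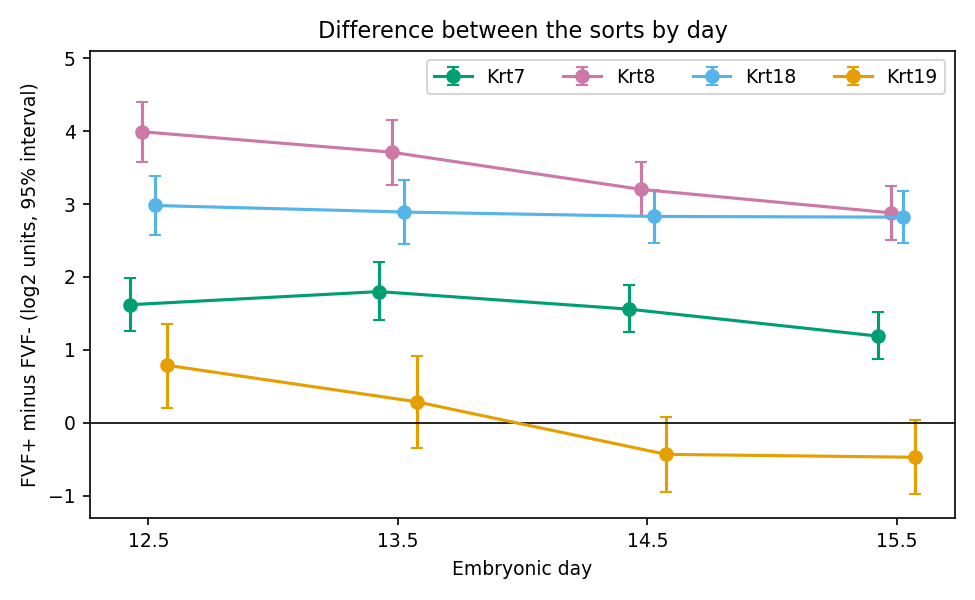
FVF+ minus FVF- difference in log2 units (vertical axis) by embryonic day (horizontal axis) for the 4 keratins, set slightly apart for legibility. Points are limma estimates and bars are 95% intervals. Krt8 goes from 3.99 to 2.88 and meets Krt18, which stays between 2.82 and 2.98, while Krt19 goes from 0.79 to -0.47 across the zero line.

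From E12.5 to E15.5 in FVF+ cells, Krt19 and Krt18 rose. Krt19 rose by 1.03 ± 0.24, or 2.05-fold (limma adjusted p = 0.00249), and Krt18 by 0.58 ± 0.17 (limma adjusted p = 0.0105). For Krt19, Krt18 and Krt8 all E15.5 arrays were above all E12.5 arrays, as they were for 34.7% of all genes, while the Krt7 arrays overlapped. Krt8 and Krt7 were not called: Krt8 changed by 0.30 ± 0.17 (95% interval -0.07 to 0.66, limma adjusted p = 0.169) and Krt7 by 0.12 ± 0.15 (95% interval -0.20 to 0.45, limma adjusted p = 0.529). The Krt8 value became a call without FVF- E14.5 replicate 2, at an unchanged 0.30 (limma adjusted p = 0.0205), and when the FVF+ E12.5 and E15.5 arrays were fitted alone (0.0174). A rise was called for 2 of the 4 members against 27.6% of all genes. Over the same days the summed signal of the 10 epithelium markers on FVF+ arrays lay between 15.72 and 15.84 (log2) at E12.5 and between 15.61 and 15.84 at E15.5, that of 9 acinar markers went from 15.51 to 15.69 up to 16.57 to 16.64, and that of 8 duct markers from 14.48 to 14.62 down to 14.08 to 14.16. Gene by gene, however, 2 of the 8 duct markers rose and 2 fell, with a list median of 0.35. Endocrine markers rose for 7 of 11 genes, with a sum of 15.02 to 15.45 at E12.5 and 16.25 to 16.38 at E15.5, and intestine and stomach markers for 7 of 9, with a sum of 11.87 to 12.01 and then 12.55 to 12.91. Their part in the keratin changes was not tested.

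Of the duct markers, Sox9, a transcription factor of progenitors and ducts, fell in FVF+ by 1.04 on the log2 scale (SE 0.24, limma adjusted p = 0.00216) and Onecut1, a transcription factor upstream of duct and endocrine fates, fell by 1.35 (SE 0.54, limma adjusted p = 0.0474), while Car2, a carbonic anhydrase, rose by 0.69 ± 0.22 (limma adjusted p = 0.0160). Muc1, an apical mucin, was not called at 0.85 ± 0.38 (limma adjusted p = 0.0747). Between the sorts, 5 of 8 measured duct markers were higher in FVF+ as the mean of the days, among them Muc1 (4.56 ± 0.21), Onecut1 (3.96 ± 0.29) and Sox9 (3.44 ± 0.13). As with Krt19, not every duct marker was higher in FVF+: Car2 (-1.99 ± 0.12) and Anxa3, an annexin (-2.21 ± 0.12), were lower.

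In FVF- cells all 4 members rose from E12.5 to E15.5, in a comparison that called 10.7% of all genes as a rise. Krt19 had the largest rise, 2.29 ± 0.27 or 4.90-fold (limma adjusted p = 1.6e-05), which put it in place 38 of 19296 genes ranked from the largest rise. Krt8 rose by 1.41 ± 0.19 or 2.65-fold (limma adjusted p = 6.8e-05), Krt18 by 0.75 ± 0.19 or 1.68-fold (limma adjusted p = 0.00946) and Krt7 by 0.55 ± 0.17 (limma adjusted p = 0.0305). For each of the 4 members all E15.5 arrays were above all E12.5 arrays, as they were for 24.5% of all genes. The Krt18 call was lost without FVF- E12.5 replicate 1 (0.79, limma adjusted p = 0.0528) or replicate 2 (0.70, limma adjusted p = 0.0847), and the Krt7 call without either of those arrays, without FVF- E15.5 replicate 1 or without FVF- E15.5 replicate 3, at 0.41 to 0.57. The count of genes called, 3945 in both directions (2073 rises and 1872 falls, or 2476 and 1406 after cyclic loess normalization), was 1995 without FVF- E12.5 replicate 1 and 2043 without FVF- E12.5 replicate 2. A rise in both sorts was called for Krt18 and Krt19, against 4.83% of genes.

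Markers of several cell types moved with these rises in the FVF- sort, where 10.7% of all genes rose. Of the 10 epithelium markers 5 rose and 0 fell, with a list median of 0.71, and their summed signal was 11.37 and 11.39 at E12.5, 11.50 and 11.44 at E13.5, 12.25, 11.34 and 12.99 at E14.5, and 11.81, 12.43 and 12.19 at E15.5. FVF- E14.5 replicate 2, the lowest of its group in this sum, was also the lowest of its group for Krt7, Krt8 and Krt18. Krt19 was instead lowest on replicate 3 (10.48), the highest of the group in the sum. At E13.5 the FVF- array with the higher sum had the lower Krt8 (10.05 against 10.26). All FVF- sums of the epithelium markers lay below the FVF+ arrays, which were between 15.61 and 15.89. Acinar markers also rose, for 6 of 9 genes, from 12.58 and 12.36 on the E12.5 arrays to 14.60, 14.99 and 15.34 on the E15.5 arrays. Of other cell types, 5 of 8 macrophage and leukocyte, 4 of 8 endothelium and 4 of 6 smooth muscle markers rose in FVF-. Mesenchyme markers rose for 4 of 10 genes and fell for 1, and duct markers rose for 4 of 8 and fell for 1. Of endocrine markers 2 of 11 rose, of neural markers 1 of 5, and of intestine and stomach markers 1 of 9. Red blood cell markers fell for 3 of 6 genes and rose for 1, with a list median of -1.01 and a sum of 14.60 and 14.74 at E12.5 against 12.95, 13.58 and 13.05 at E15.5. Their part in the FVF- keratin signal was not tested.

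Of 9 measured mesothelium markers 5 rose in FVF-, against 10.7% of all genes, and 0 fell, with a list median of 0.40. These were Lrrn4 (1.77 ± 0.26), Gpm6a, a membrane glycoprotein (1.51 ± 0.23), Upk3b, a uroplakin (1.36 ± 0.28), Rspo1, a Wnt pathway activator (0.71 ± 0.18), and Msln, or mesothelin (0.40 ± 0.10). Msln was not called between the sorts (-0.07 as the mean of the days), and its mean also went from 7.25 to 7.68 in FVF+. Wt1, a transcription factor of mesothelium (-0.15), Upk1b (-0.06) and Bnc1 (-0.50) were not called. The summed signal of the list was 13.32 and 13.35 at E12.5, 13.93 and 13.60 at E13.5, 13.98, 13.96 and 13.92 at E14.5, and 14.12, 13.83 and 14.03 at E15.5, against 10.67 to 11.74 on the FVF+ arrays. FVF- E13.5 replicate 1, which stood above replicate 2 for Krt19 (10.19 and 8.97), also stood above it in the mesothelium sum (13.93 and 13.60) and for 7 of the 9 mesothelium markers, with Wt1 (11.56 and 11.84) among the others. It stood above replicate 2 in 11 of 12 marker list sums, among them those of acinar (13.02 and 12.37) and endothelium markers (14.12 and 13.76). The part of mesothelium in the Krt19 signal was not tested.

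**Figure D3:**
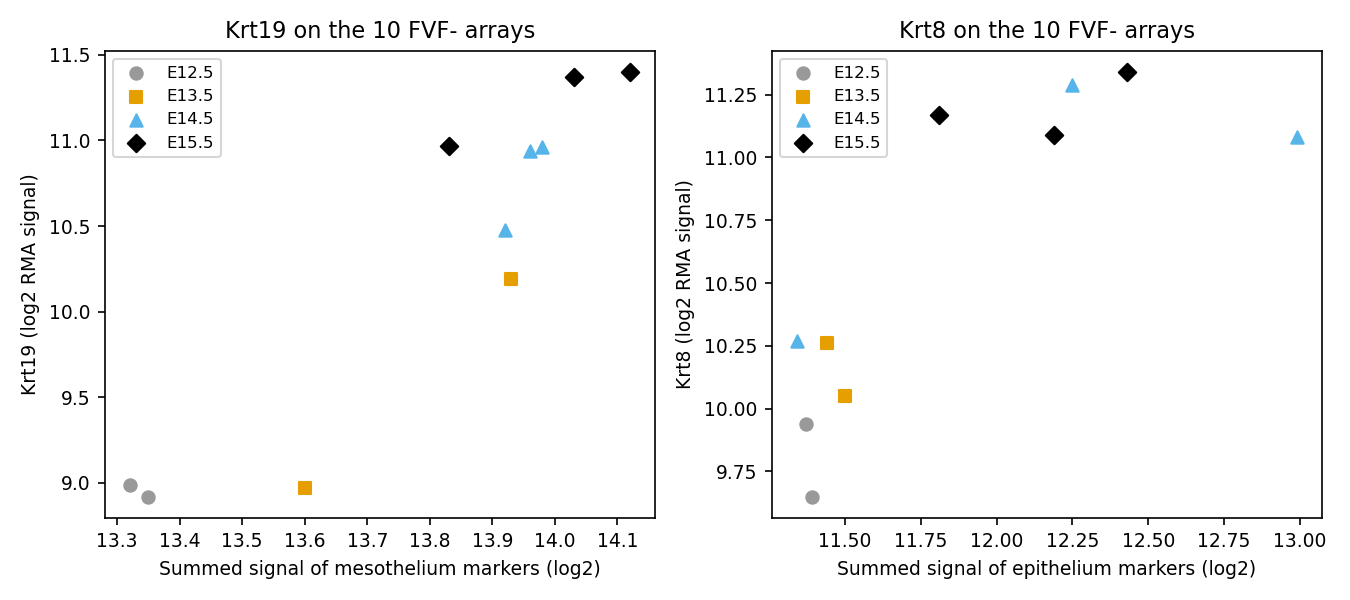
Each symbol is 1 of the 10 FVF- arrays, shaped by embryonic day. Left, Krt19 (log2 RMA signal, vertical axis) against the log2 of the summed linear signal of 9 mesothelium markers (horizontal axis); right, Krt8 against the same sum for 10 epithelium markers. For Krt8 the E12.5 arrays are lowest; for Krt19 the E12.5 arrays and FVF- E13.5 replicate 2, at 8.97, lie together at the bottom. At E14.5 the array lowest of its day for Krt8, at 10.27, is also lowest of its day in the sum. At E13.5 the array higher for Krt8, at 10.26, is the lower in the sum.

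Whether the sorts differed in their change over these days was tested as an interaction of sort and day, which was called for 19.6% of genes, and for 8.83% with the smaller rise or larger fall in FVF+. It was called for Krt8 (-1.11 ± 0.26, limma adjusted p = 0.00712) and Krt19 (-1.26 ± 0.36, limma adjusted p = 0.0222). Both had the larger upward change in FVF- cells on the log2 scale, that is in proportion, and linear amounts were not compared. In FVF+ cells the Krt8 change (0.30) was not called as a rise. On the FVF+ arrays Krt8 lay at percentiles 99.6 to 99.9 of all genes. Whether so high a signal could still rise in full on these arrays was not tested. For Krt7 the interaction was -0.43 ± 0.23 (95% interval -0.91 to 0.06, limma adjusted p = 0.202) and for Krt18 it was -0.17 ± 0.26 (95% interval -0.71 to 0.38, limma adjusted p = 0.686). The Krt8 call was lost without FVF- E12.5 replicate 2 (-0.96, limma adjusted p = 0.0554). The Krt19 call was lost without FVF- E12.5 replicate 1 (-1.29, limma adjusted p = 0.0581), FVF- E12.5 replicate 2 (-1.22, 0.0867) or FVF- E15.5 replicate 3 (-1.20, 0.0513). Without FVF- E12.5 replicate 2, 1818 genes were called in place of 3786, which were 2083 higher and 1703 lower as deposited and 1390 and 2014 after cyclic loess normalization.

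A test over all 4 days, with 3 degrees of freedom and 16.5% of genes called, asked whether the sort difference was the same on each day. It was called for Krt8 (F = 7.14, limma adjusted p = 0.0229) and, just inside the threshold, for Krt19 (F = 5.43, limma adjusted p = 0.0491). Krt7 (F = 2.40, limma adjusted p = 0.237) and Krt18 (F = 0.170, limma adjusted p = 0.938) were not called. The Krt8 call was lost without FVF- E12.5 replicate 2 (F = 4.83, limma adjusted p = 0.0892) and without FVF- E15.5 replicate 2 (F = 5.76, 0.0501). The Krt19 call was lost in 20 of 30 alternatives, and without 1 array its F ran from 3.79 to 13.0.

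Between consecutive days, 2 members were called, both from E13.5 to E14.5 in FVF- cells. Krt19 rose by 1.21 ± 0.27 (limma adjusted p = 0.0149) and Krt8 by 0.73 ± 0.19 (limma adjusted p = 0.0319) in this step, which called 8.30% of genes and 5.68% as a rise. Krt7 (0.55 ± 0.17, limma adjusted p = 0.0561) and Krt18 (0.41 ± 0.19, limma adjusted p = 0.185) were not called. Both calls were lost when only the arrays of these 2 groups were fitted (Krt8 0.72, limma adjusted p = 0.312, and Krt19 1.21, 0.256), where 0 genes were called (3041 at an unadjusted limma p under 0.05). They were also lost with a term for the letter-coded E13.5 arrays (Krt8 0.83 and Krt19 0.60). For this step that term gave the same values as leaving out FVF- E13.5 replicate 2, so it is not a separate check. Array weights ended the Krt8 call (0.52, limma adjusted p = 0.250). The step rests on 2 arrays at E13.5: without FVF- replicate 1 of E13.5 the Krt8 value was 0.62 (limma adjusted p = 0.104), without replicate 2 it was 0.83 (0.184), and the Krt19 value was 0.60 (0.333) without replicate 2. Leaving out FVF- E14.5 replicate 1 also ended both calls, at 0.52 for Krt8 and 1.13 for Krt19, and leaving out FVF- E14.5 replicate 3 that of Krt8, at 0.62. Conversely, Krt18 was called at 0.69 (limma adjusted p = 0.00998) and Krt7 at 0.67 (0.0362) without FVF- E14.5 replicate 2, and Krt7 at 0.75 (0.0235) without FVF- E13.5 replicate 1. In the other steps 0 members were called (with array weights, Krt19 was called from E14.5 to E15.5 in FVF+, at 0.56, limma adjusted p = 0.0231), where the share of all genes called was 0.00518% (E12.5 to E13.5), 8.85% (E13.5 to E14.5) and 25.6% (E14.5 to E15.5) in FVF+, and 1.02% (E12.5 to E13.5) and 6.49% (E14.5 to E15.5) in FVF-. At an unadjusted p under 0.05 there was 1 such change, of Krt7 from E14.5 to E15.5 in FVF+ (-0.37 ± 0.15, limma adjusted p = 0.0825). Without FVF- E13.5 replicate 2, the array at 8.97, the Krt19 rise from E12.5 to E13.5 in FVF- was called at 1.23 (limma adjusted p = 0.0221).

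Within a sort, the members varied together to different degrees, which is given as a description of arrays that share their days. Krt8 and Krt18 had a Pearson r of 0.87 over the 11 FVF+ arrays and 0.93 over the 10 FVF- arrays. Krt19 went with Krt18 (0.97) and Krt8 (0.90) in FVF+, and with Krt7 (0.87) and Krt8 (0.81) in FVF-. Krt7 was the least tied to the others in FVF+, at 0.54 with Krt8, 0.49 with Krt18 and 0.44 with Krt19.

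The genes most like each member were named by the highest Pearson r of log2 values. Over all 21 arrays, which include the difference between the sorts, Krt8 was most like Adgrg1 (0.993), Mansc1 (0.992), Krt18 (0.991), Prss8 (0.990) and Epn3 (0.990). Krt18 was most like Prss8 (0.994), Cldn7 (0.992), Wfdc15b (0.992), Krt8 (0.991) and Cldn3 (0.990), and the partners thus stood in each other's lists. Cldn3 and Cldn7 encode claudins of epithelial tight junctions and Prss8 a membrane-bound epithelial protease. Krt7 was most like Tspan33 (0.977), Casz1 (0.973), Cystm1 (0.973), Epn3 (0.972) and Gfra3 (0.972). For Krt19 the genes were others, Ndrg2 (0.958), Tapbp (0.921), Tspo (0.919), H6pd (0.919) and Gadd45b (0.919).

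Within the 10 FVF- arrays the lists changed. Krt19 went with Pygl (0.988), the liver form of glycogen phosphorylase, Ramp2 (0.988) and Gadd45b (0.987). Krt8 went with Fgf18 (0.972), Irak3 (0.949) and Klrb1b (0.943), Krt18 with Ntn1 (0.946), Krt8 (0.931) and Cpn1 (0.929), and Krt7 with Trabd (0.969), Polg (0.968) and Ydjc (0.967). Within the 11 FVF+ arrays Krt19 went with Scnn1b (0.991), a subunit of the epithelial sodium channel, Anks1 (0.987) and Siah2 (0.986), and Scnn1b (0.982) was also among the genes nearest Krt18, with Selenbp2 (0.989) and Mapkbp1 (0.982). Krt8 was nearest to Smdt1 (0.985), Cnp (0.982) and Ankrd13a (0.978), and Krt7 to Numbl (0.961), Lingo1 (0.960) and Olfm1 (0.941).

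The other keratins, mostly of stratified epithelia and hair, did not share the sort difference of Krt7, Krt8 and Krt18. Of 24 measured, 6 were higher in FVF+, against 30.5% of all genes, 5 were lower and 13 were not called as the mean of the days. Their median difference was 0.07, beside 0.03 over all genes and 2.21 for the 4 simple keratins. The largest were Krt23 (0.90 ± 0.06), Krt80 (0.61 ± 0.06) and Krt20 (0.41 ± 0.06), a keratin of gut epithelium. Lower were Krt14 (-0.66 ± 0.07), the basal type I keratin of stratified epithelia, Krt17 (-0.62 ± 0.09) and Krt15 (-0.24 ± 0.04), and the uncalled genes with the highest signal were Krt10 (0.11) and Krt12 (0.10). Only Krt80 of the 24 had a group mean above 8.77, the median of all values, against 4 of 4 simple keratins.

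From E12.5 to E15.5 Krt23 rose in FVF+ by 1.02 ± 0.10, from 7.29 ± 0.10 (SD, n = 3) to 8.31 ± 0.14 (SD, n = 3), and read 6.84 at both days in FVF-. In FVF- cells 3 of the 24 rose, against 10.7% of all genes, and the list median was -0.00. Those called as a rise were Krt17 (0.95 ± 0.18), Krt14 (0.76 ± 0.14) and Krt80 (0.38 ± 0.12), and Krt24 fell (-0.39 ± 0.12). In FVF+ 13 of the 24 were called as a rise, against 27.6% of all genes, and 1, Krt20 (-0.29 ± 0.12), as a fall. After quantile normalization, however, the counts were 3 and 1 and after cyclic loess 2 and 1. The number of these dim keratins that rose thus depended on the scaling of the arrays, whereas 2 of the 4 simple keratins rose in FVF+ under each of these scalings.

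Other intermediate filament genes ran the other way. Of 13, 8 were lower in FVF+, 1 higher and 4 not called, with a median of -0.62, while 4858 of all 19296 genes were lower. Des, the muscle filament desmin, was lowest (-3.89 ± 0.15), followed by the neuronal Nefl (-2.53 ± 0.11) and by Nes, or nestin (-1.43 ± 0.13), and Vim, the filament of mesenchyme, was lower by a smaller amount (-0.53 ± 0.05). Nefh was higher (0.34 ± 0.07). The B-type lamins Lmnb1 (0.05) and Lmnb2 (0.11) of the nuclear envelope were not called.

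Genes of the desmosome, the junction that anchors keratin filaments between cells, were higher in FVF+ for 9 of 10 genes, with a median of 1.64. Of all genes 30.5% were called higher in this comparison. The cadherin Dsg2 (3.41 ± 0.18) and the keratin-binding plakin Dsp (3.07 ± 0.12) led the list, followed by Perp, a membrane protein of desmosomes (2.43 ± 0.07). Pkp1 was not called (0.04). In FVF- cells 2 of the 10 desmosome genes rose from E12.5 to E15.5 and 1 fell, while 10.7% of all genes rose. Of 10 hemidesmosome and keratin linker genes 7 were higher and 1 lower in FVF+, with a median of 0.57: the integrin chains Itga6 (1.60 ± 0.10) and Itgb4 (1.38 ± 0.09) and Fam83h (1.30 ± 0.08) were highest, Col17a1 was lower (-0.24 ± 0.05), and Plec (-0.07) and Tchp (-0.08) were not called.

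Of 12 transcription factors of epithelia, 8 were higher, against 30.5% of all genes, and 2 lower in FVF+, with a median of 0.56. Ehf (3.16 ± 0.10) and Elf3 (2.92 ± 0.11), of the Ets family, and Grhl2 (3.14 ± 0.21), of the grainyhead family, were highest. Klf4 (-1.40 ± 0.09) and Tfap2a (-0.29 ± 0.05) were lower, and Cdx2 (0.09) and Tfap2c (0.07) were not called. In FVF+ cells 10 of the 12 rose from E12.5 to E15.5 and 0 fell, against 27.6% of all genes called as a rise. After quantile or cyclic loess normalization 8 rose and 0 fell, where 3945 and 3810 of all 19296 genes rose. In FVF- cells 1 rose, Klf4, against 10.7% of all genes. In FVF- 0 of the list fell as deposited, 2 after quantile normalization and 1 after median centring. For the mean sort difference, no called gene of these 5 lists changed sign under median centring, quantile or cyclic loess normalization.

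**Figure D4:**
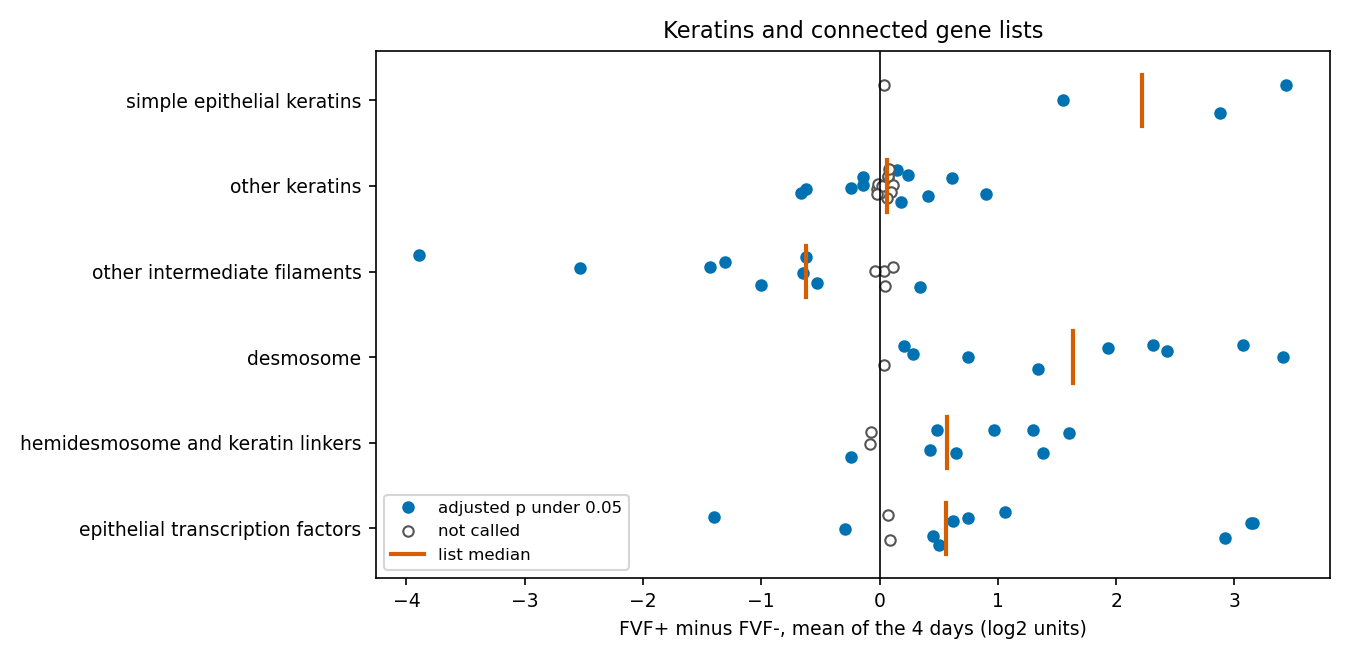
Each circle is a gene at its FVF+ minus FVF- difference, the mean of the 4 days in log2 units (horizontal axis), in 1 of 6 lists (vertical axis, jittered within a list). Filled circles had a limma adjusted p under 0.05, open circles were not called, and the upright bar is the list median. Simple keratins (median 2.21) and desmosome genes (1.64) lie to the right, other keratins around 0.07, and other intermediate filament genes to the left (-0.62), with Krt19 as the open circle near 0 in the top list.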

How the data were processed

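Total RNA of sorted embryonic mouse pancreas was measured on 21 Affymetrix arrays; per the labels' protocols an RNeasy Mini kit, the WT Expression kit of Ambion and Affymetrix terminal labelling were used. The authors deposited log2 values, summarised by RMA with affy 1.44.0 per the submitters' processing notes; raw intensities were not used here. Of 23305 probe sets, 20728 had 1 gene symbol, 1174 several and 1403 none, and the row with the highest mean was kept for the 804 genes with several rows, which left 19296. Symbols were checked by Entrez ID against RefSeq (0 changed, 43 not listed).

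All 21 arrays were fitted with 8 group means in limma 3.58.1 (R 4.3.3; 13 residual degrees of freedom), two-sided, with Benjamini-Hochberg adjustment over 19296 genes and a threshold of 0.05; "called" means past it. Errors are moderated SE for differences and SD for group means. Both tests were tested on simulated data. The number of arrays limits the precision.

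The members, lists and tests were chosen with earlier results of these data known. From each list up to 3 called genes per direction with the largest mean sort difference and up to 2 uncalled with the highest signal were to be named; named beyond that, after their values were seen, were genes that rose or fell in one sort, Vim, and all called or defining mesothelium markers. Muc16 had no row with that symbol alone. Of 9 intestine and stomach markers 3 were higher and 1 lower in FVF+. Alternatives were another row rule, a dim filter, 3 normalizations, robust moderation, array weights, fewer arrays, a replicate block, a term for 3 letter-coded E13.5 arrays, no E13.5, and each array left out.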

Additional observations from a re-analysis of the deposited data

Results flagged for a closer look

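Between E12.5 and E15.5 the sorts changed unequally on the log2 scale in 2 keratins, by the test of the interaction in limma. For Krt8 the change in FVF+ minus that in FVF- was -1.11 (SE 0.26, adjusted p = 0.00712), from changes of 0.30 in FVF+ and 1.41 in FVF-. For Krt19 it was -1.26 (SE 0.36, adjusted p = 0.0222), from 1.03 and 2.29. The cause was not tested.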

How the results depend on the processing

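Over 36 tested results of the 4 keratins and 1136 values under alternatives, 1086 kept their call and 0 called results reversed in direction. For daily steps 724 of 744 kept their call. Results not called as reported did change sign in places. Without 1 array at a time, the Krt19 difference ran from -0.32 to 0.90 at E13.5, and its mean over the days from -0.11 to 0.19. All sort differences of Krt7, Krt8 and Krt18 kept their call, as did the 6 comparisons between members. The dim filter left 11407 genes and called 5945 for the FVF+ change (9048 as reported) and 2497 for the interaction (3786), which fell to 2392 with the fixed replicate block and reached 6009 with array weights. Median centring gave 0.48 for the Krt7 change in FVF- (adjusted p = 0.0571) and an F of 5.07 for Krt19, quantile normalization 5.29, cyclic loess 5.47 and robust moderation 5.34. At E12.5 the Krt19 difference was 0.70 with quantile and with cyclic loess normalization. Krt19 was called with array weights at E14.5 (-0.59) and E15.5 (-0.50), with only the compared arrays at E15.5 (-0.47), and with the term for letter-coded arrays at E13.5 (0.90) and E15.5 (-0.47). That 0.90 was the same value as without FVF- E13.5 replicate 1. Krt8 was called in FVF+ with only the compared arrays (0.30).

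Without 1 array at a time, the Krt19 sort difference ran from 0.75 to 0.85 at E12.5, -0.32 to 0.90 at E13.5, -0.68 to -0.29 at E14.5 and -0.61 to -0.40 at E15.5. The FVF- change ran from 0.41 to 0.65 for Krt7 and 0.65 to 0.82 for Krt18, and the FVF+ change of Krt8 from 0.25 to 0.33. The interaction ran from -1.25 to -0.96 for Krt8 and -1.40 to -1.18 for Krt19, and F from 4.83 to 27.6 and 3.79 to 13.0. Genes called ran from 1995 to 4306 for the FVF- change and 1818 to 4237 for the interaction. A lone array left in a group was assumed to vary like the others. The causes were not tested.

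Between samples sharing a replicate number, the correlations of deviations ran from -0.37 to 0.49, without a common sign. Deviations within groups of so few arrays depend on each other, so these values cannot decide whether the numbers pair the samples. With a random replicate block (correlation 0.01) or a fixed one, no call of a keratin changed.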
